A study of Mus musculus with 8 samples.

Results

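Followed here were the transcripts of 10 genes that write methylation of histone H3 at lysine 9 (H3K9), recruit its writers or read it. The count table holds 55421 gene identifiers. Only RNA was counted, so neither the methylation nor any protein was measured. The genes were chosen by name: Wiz and Zfp644, the adaptors; Ehmt1 and Ehmt2, Setdb1, Suv39h1 and Suv39h2, the methyltransferases; and Cbx1, Cbx3 and Cbx5, the heterochromatin protein 1 (HP1) readers. All 10 were found in the table and all 10 passed the filter on low counts, which left 14647 genes for testing. The rule is a list of names and uses no threshold on a measured value. Wiz is also the target of 1 of the siPOOLs.

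The cells were E14 mouse embryonic stem cells of 129/Ola background in which the microRNA cluster miR-290-295 is knocked out, so that every group, the control included, carries the deletion. They were labelled as derived from the blastocyst and were grown in serum with LIF, a cytokine that maintains self-renewal, on gelatin. Each culture received a siPOOL, a pool of many small interfering RNAs that share a target, at 5 nM with a lipid reagent, and was harvested after 36 h. The groups were siTfap4, siWiz and siZic2, aimed at 3 genes for DNA-binding factors, and siNeg, a negative control siPOOL, with 2 libraries each. The labels call the libraries biological duplicates and say no more of the cultures, so p-values measure the spread between these samples, which may be technical in part. No group without a siPOOL and no group of cells that keep the cluster is part of the comparisons. RNA was read with QuantSeq, which primes at the poly(A) tail and counts transcript ends. Levels are given in CPM, which divides each count by the TMM-scaled library size, and they compare libraries for 1 gene, not genes with each other.

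Ehmt1 (GLP) and Ehmt2 (G9a) work as a heterodimer that places mono- and dimethyl marks on H3K9, mainly in euchromatin. Wiz, a zinc finger protein, joins the heterodimer, stabilises it on chromatin and links it to CtBP corepressors, while Zfp644 is a zinc finger partner of the same enzymes. Setdb1, brought by KRAB zinc finger proteins and Trim28, trimethylates H3K9 at endogenous retroviruses in embryonic stem cells, and Suv39h1 and Suv39h2 trimethylate it at pericentromeric repeats. The HP1 proteins HP1 beta (Cbx1), HP1 gamma (Cbx3) and HP1 alpha (Cbx5) bind the methylated lysine through their chromodomains.

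The promoters of 4 members are shown, because the results turn on Wiz, the silenced target, and on Ehmt2, Cbx1 and Cbx5, which were picked for display after their values in siTfap4 were seen. Each runs on the gene's strand from 250 bases before to 50 bases after an annotated start (RefSeq, GRCm38.p6), and capitals mark matches to CANNTG, the E-box core to which basic helix-loop-helix proteins such as Tfap4 bind. The windows lie at chr17:32389357-32389656 on the minus strand for Wiz, chr17:34898224-34898523 on the plus strand for Ehmt2, chr11:96788885-96789184 on the plus strand for Cbx1 and chr15:103239803-103240102 on the minus strand for Cbx5.
Wiz: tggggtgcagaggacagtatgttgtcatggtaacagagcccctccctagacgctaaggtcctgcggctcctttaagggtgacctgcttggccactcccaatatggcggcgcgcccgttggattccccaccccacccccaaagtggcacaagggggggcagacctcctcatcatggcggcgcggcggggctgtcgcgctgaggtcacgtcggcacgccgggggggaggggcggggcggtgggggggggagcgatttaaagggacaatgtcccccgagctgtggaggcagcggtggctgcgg
Ehmt2: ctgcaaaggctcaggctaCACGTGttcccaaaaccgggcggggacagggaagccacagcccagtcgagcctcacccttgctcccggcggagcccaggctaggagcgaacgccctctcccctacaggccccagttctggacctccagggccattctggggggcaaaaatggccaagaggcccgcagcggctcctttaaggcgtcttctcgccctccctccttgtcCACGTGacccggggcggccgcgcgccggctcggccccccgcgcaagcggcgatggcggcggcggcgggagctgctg
Cbx1: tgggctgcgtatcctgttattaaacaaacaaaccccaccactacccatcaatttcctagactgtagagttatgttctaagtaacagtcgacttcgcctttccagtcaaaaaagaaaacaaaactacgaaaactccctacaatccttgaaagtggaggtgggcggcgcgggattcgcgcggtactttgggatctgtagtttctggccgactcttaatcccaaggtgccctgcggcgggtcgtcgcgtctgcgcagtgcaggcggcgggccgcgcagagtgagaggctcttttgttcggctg
Cbx5: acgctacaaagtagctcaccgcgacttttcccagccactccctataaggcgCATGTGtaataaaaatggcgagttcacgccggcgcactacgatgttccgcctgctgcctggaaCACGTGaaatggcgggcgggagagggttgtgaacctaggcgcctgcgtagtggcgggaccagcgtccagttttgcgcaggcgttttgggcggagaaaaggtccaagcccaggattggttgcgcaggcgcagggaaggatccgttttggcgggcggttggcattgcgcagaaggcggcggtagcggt

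The Wiz and Cbx1 windows held no CANNTG, the Ehmt2 window held 2 copies of CACGTG, and the Cbx5 window held 1 CACGTG among 2 CANNTG matches. Motifs were searched on both strands. CAGCTG, the form bound by Tfap4, and CACGTG are each their own reverse complement and are contained in CANNTG. Over the window nearest to the annotated start of each of the 10 members, CANNTG was in 7, CAGCTG in 2 (Zfp644 and Suv39h2) and CACGTG in 2 (Ehmt2 and Cbx5). Of 32851 promoter windows of the same 300-base length, 72.3% held CANNTG, 16.3% held CAGCTG and 7.2% held CACGTG. With all 18 windows of the members counted, CAGCTG was in a window of 4 members, including a second Cbx5 window with 2 copies. A match describes these letters and no binding was measured.

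Library totals lay between 8326675 and 13788856 counted reads, with the lowest 2 in siTfap4. The 2 siTfap4 libraries stood apart from the other 6 on the first principal component (59.8% of the variance), at -103.3 and -57.7 against 1.8 to 38.9, and siTfap4 replicate 1 was the more distant. The siPOOL targets other than Wiz served as a check of the labels. Tfap4 was at 12 and 15.7 CPM in siTfap4 against 33.4 and 37.1 CPM in siNeg (adjusted p = 0.00417). Zic2 was at 2.15 and 1.83 CPM in siZic2 against 4.49 and 2.21 CPM in siNeg (adjusted p = 1.00), on only 17 to 54 counts, and at 2.59 and 2.01 CPM in siWiz, which overlapped siZic2, so Zic2 gave no check of its label. All 10 stem cell markers were counted, and their summed level lay between 3487.4 and 3899.3 CPM. By edgeR, 2 of the 10 rose and 1 fell in siTfap4 against siNeg, beside 4.24% and 11.7% of all genes. Such changes can cancel in a sum. The fibroblast list summed to at most 11.7 CPM with Postn at 0, the primitive endoderm list to at most 10.9, the trophectoderm list to at most 23.7 and the neural list to at most 27.5 with Neurog2 at 0. Of 5 primitive endoderm markers tested, 1 fell in siTfap4 against siNeg. No marker of the fibroblast, trophectoderm or neural list was called there.

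Wiz RNA was lowest in the cells that received the siPOOL against it. Wiz (chromosome 17, 32354055 to 32389439, minus strand, GRCm38) was counted at 16.8 and 19.7 CPM in siWiz, 30.1 and 35.9 CPM in siTfap4, 43.9 and 37.5 CPM in siZic2, and 49.9 and 46.1 CPM in siNeg. The 4 groups did not overlap in Wiz level: both siWiz libraries were below all others, siTfap4 came next, then siZic2, and siNeg was highest. The counts behind these levels were 188 and 206 reads in siWiz, 243 and 306 in siTfap4, 634 and 349 in siZic2, and 600 and 480 in siNeg. In siWiz, Wiz averaged 18.2 ± 2.06 CPM, against 48.0 ± 2.65 CPM in siNeg (SD, n = 2 each), which is 38.0% of the control (95% interval 26.5% to 54.3%). The log2 fold change was -1.40 (SE 0.24), and its p of 4.83e-05 ranked 1 among the 14647 genes of the comparison. After Benjamini-Hochberg adjustment over all of them edgeR's quasi-likelihood test gave an adjusted p of 0.708, so Wiz did not pass the threshold of 0.05, and no other gene did. DESeq2 called Wiz (adjusted p = 0.00315), as did edgeR with no filter on low counts (adjusted p = 0.0118). Over 20 alternatives its log2 fold change lay between -1.52 and -1.28. Bulk RNA cannot tell fewer cells with the transcript from less transcript per cell.

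Against siZic2, another siPOOL aimed at a gene, Wiz in siWiz gave a log2 fold change of -1.16 (SE 0.24), again rank 1 of all genes by p, with an adjusted p of 1.00 by edgeR. That is 44.7% of the siZic2 level (95% interval 31.3% to 63.8%). Wiz in siZic2 itself averaged 40.7 ± 4.52 CPM and was at 84.9% of siNeg (95% interval 60.1% to 120.1%, adjusted p = 1.00 by edgeR). Neighbouring groups in the order thus differed by the test only between siTfap4 and siWiz. There Wiz was 1.81-fold higher in siTfap4 (log2 0.86, SE 0.24, edgeR adjusted p = 0.0304). The unadjusted edgeR p was 0.00318, larger than the 4.83e-05 of the uncalled siWiz against siNeg difference. The adjustment depends on all genes, of which 31.6% and 1.82% had an unadjusted p under 0.05 in these 2 comparisons. Between siTfap4 and siZic2 the log2 fold change of Wiz was -0.30 (edgeR adjusted p = 0.367). The siTfap4 against siWiz call was lost without any 1 of the siTfap4, siWiz or siZic2 libraries (adjusted p 0.0584 to 0.239) and in a fit of the 2 groups alone (0.0730).

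Wiz in siTfap4 averaged 33.0 ± 4.06 CPM, against 48.0 ± 2.65 CPM in siNeg (SD, n = 2 each). Both siTfap4 libraries were below both siNeg libraries. The log2 fold change of -0.54 (SE 0.24, 68.8% of control, 95% interval 48.4% to 97.6%) had an unadjusted p of 0.0380 and an edgeR adjusted p of 0.131.

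**Figure D1:**
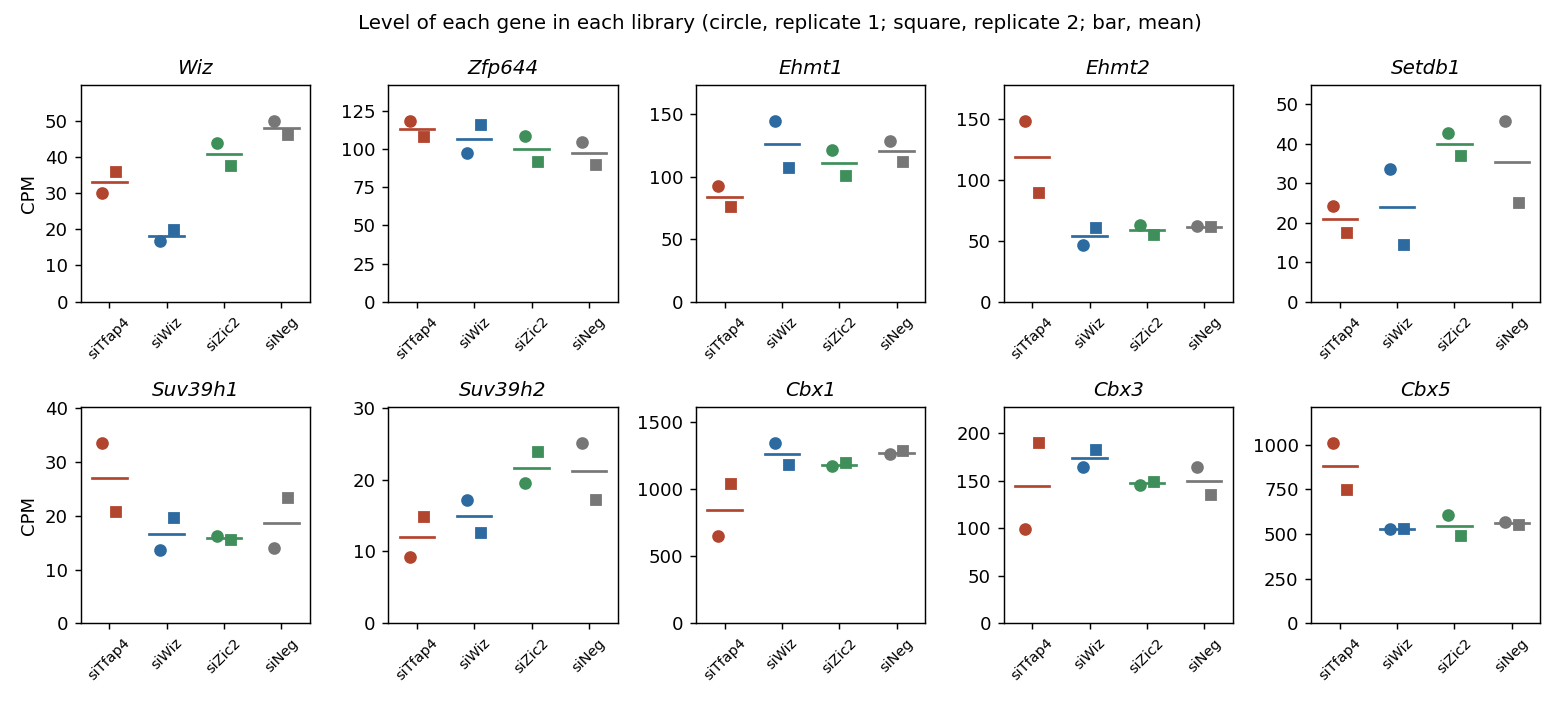
Level of each of the 10 genes in every library, in CPM on axes that start at 0, by group (siTfap4, siWiz, siZic2, siNeg; 2 points each). Wiz is lowest in siWiz at 16.8 and 19.7 CPM, and Ehmt2 and Cbx5 are highest in siTfap4.

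Zfp644, the other adaptor (chromosome 5, 106616739 to 106697287, minus strand), varied least of the 10. It was at 118.3 and 107.6 CPM in siTfap4, 97.3 and 115.6 CPM in siWiz, 108.7 and 91.6 CPM in siZic2, and 104.6 and 89.8 CPM in siNeg. The siTfap4 libraries lay just above both siNeg libraries, and the other groups overlapped with them. Its SD of log2 CPM over the 8 libraries was 0.15, against a median of 0.41 over all tested genes and 0.57 for Wiz. In siWiz, Zfp644 was at 109.6% of siNeg (95% interval 78.5% to 152.9%), and in siTfap4 at 116.2% (83.3% to 162.3%), with edgeR adjusted p of 1.00 and 0.531.

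Of the partner enzymes of Wiz, Ehmt2 was higher in siTfap4 than in each other group, and neither enzyme passed the test in siWiz or siZic2. Ehmt2 (chromosome 17, 34898469 to 34914052, plus strand) was at 148.4 and 89.5 CPM in siTfap4, 46.8 and 60.5 CPM in siWiz, 63.1 and 54.8 CPM in siZic2, and 62.1 and 61.3 CPM in siNeg. Both siTfap4 libraries were above all 6 others, and they differed from each other more than the others did. Ehmt2 averaged 118.9 ± 41.7 CPM in siTfap4 and 61.7 ± 0.558 CPM in siNeg (SD, n = 2 each), a 1.93-fold rise (log2 0.95, SE 0.27, edgeR adjusted p = 0.0302). Against siWiz the rise was 2.22-fold (log2 1.15, SE 0.27, edgeR adjusted p = 0.0140), and against siZic2 it was 2.02-fold (log2 1.01, SE 0.27, edgeR adjusted p = 0.0167).

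The Ehmt2 rise rested on siTfap4 replicate 1. Without that library, the log2 fold change was 0.53 against siNeg (edgeR adjusted p = 0.292), 0.73 against siWiz (0.151) and 0.59 against siZic2 (0.182). The call against siNeg was also lost without siNeg replicate 1 (0.97, 0.118) or replicate 2 (0.92, 0.0895), that against siWiz without siWiz replicate 1 (0.98, 0.157), and that against siZic2 without siZic2 replicate 1 (1.09, 0.0863) or replicate 2 (0.90, 0.138). DESeq2 called Ehmt2 against siNeg with an adjusted p of 0.00998.

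Ehmt1 (chromosome 2, 24789928 to 24919614, minus strand) was at 92.6 and 75.7 CPM in siTfap4, 144.6 and 107.1 CPM in siWiz, 121.8 and 100.4 CPM in siZic2, and 129.0 and 112.1 CPM in siNeg. The siTfap4 libraries were the lowest 2 of the 8, and the other 3 groups overlapped. Its mean of 84.2 ± 11.9 CPM in siTfap4, against 120.6 ± 11.9 CPM in siNeg, gave a log2 fold change of -0.52 (SE 0.24, edgeR adjusted p = 0.153). In siWiz, Ehmt1 was at 104.4% of siNeg (95% interval 73.1% to 149.0%) and Ehmt2 at 87% (58.6% to 129.1%), both with an edgeR adjusted p of 1.00. Summed over the 2 enzymes, the level was 241.0 and 165.2 CPM in siTfap4, 191.5 and 167.6 CPM in siWiz, 185.0 and 155.1 CPM in siZic2, and 191.1 and 173.5 CPM in siNeg, and all groups overlapped.

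None of the 3 enzymes that trimethylate H3K9 passed the main test in any comparison, though some alternatives called them. The main test used all 8 libraries and the filter, with no replicate block and no GC correction. Setdb1 (chromosome 3, 95323525 to 95357202, minus strand) was at 24.1 and 17.5 CPM in siTfap4, 33.6 and 14.4 CPM in siWiz, 42.7 and 36.9 CPM in siZic2, and 45.7 and 24.9 CPM in siNeg. It had the largest SD of log2 CPM over the 8 libraries among the members, 0.60, and replicates differed widely in siWiz and siNeg. Its log2 fold change against siNeg was -0.77 in siTfap4 (SE 0.38, edgeR adjusted p = 0.177) and -0.56 in siWiz (SE 0.37, edgeR adjusted p = 1.00). Against siZic2, Setdb1 in siTfap4 gave -0.94 (SE 0.38, edgeR adjusted p = 0.0872), with no overlap of the groups; it was called in 5 of 19 alternatives, among them without siWiz replicate 1 (-0.96, adjusted p = 0.0410) or replicate 2 (-0.95, 0.0416), with the 2 groups alone (-0.97, 0.0269) and with no filter (-0.97, 0.00993). The annotated exons of Setdb1 overlap those of Cers2, a ceramide synthase gene on the opposite strand, by 75 bases. Cers2 fell in siTfap4, to 5.83 and 20.6 CPM, against 38.8 and 34.2 CPM in siNeg (log2 -1.46, SE 0.40, edgeR adjusted p = 0.0278).

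Suv39h1 (chromosome X, 8061171 to 8074760, minus strand) was at 33.5 and 20.6 CPM in siTfap4, 13.7 and 19.5 CPM in siWiz, 16.2 and 15.5 CPM in siZic2, and 14 and 23.2 CPM in siNeg. The siTfap4 libraries overlapped with siNeg and were above siWiz and siZic2. The log2 fold change of siTfap4 against siNeg was 0.54 (SE 0.32, edgeR adjusted p = 0.256). Against siZic2 it was 0.77 (edgeR adjusted p = 0.0964). Suv39h1 was called there in 3 of 19 alternatives, among them GC and length correction with either transcript end (1.10, edgeR adjusted p = 0.0288, and 1.09, 0.0307). Its exons share 767 bases with the antisense gene Gm14820, which was at 30.7 and 26.8 CPM in siTfap4 and 15.3 and 24.1 CPM in siNeg (log2 0.55, edgeR adjusted p = 0.186). The strand setting of the counting is not given, so reads of this pair, and of Setdb1 and Cers2, may not be told apart. The same limit holds for Suv39h2, whose exons share 357 bases with the opposite-strand gene Dclre1c. It also holds for Wiz, whose exons share 2040 bases with Gm26858, an opposite-strand noncoding RNA gene absent from the count table.

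Suv39h2 (chromosome 2, 3455815 to 3475031, minus strand) was at 9.18 and 14.8 CPM in siTfap4, 17.2 and 12.6 CPM in siWiz, 19.5 and 23.8 CPM in siZic2, and 25.1 and 17.2 CPM in siNeg. The siTfap4 libraries were below siNeg and siZic2 and overlapped with siWiz. Suv39h2 averaged 12 ± 3.96 CPM in siTfap4 and 21.2 ± 5.59 CPM in siNeg (log2 -0.82, SE 0.31, edgeR adjusted p = 0.0883), and it was called without siTfap4 replicate 2 (log2 -1.22, adjusted p = 0.0308). The sum over the 3 enzymes was 66.7 and 52.9 CPM in siTfap4, 64.6 and 46.5 CPM in siWiz, 78.4 and 76.2 CPM in siZic2, and 84.9 and 65.2 CPM in siNeg.

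Among the HP1 genes, Cbx1 and Cbx5 lay on opposite sides of the control in siTfap4, although neither passed the test against siNeg. Cbx5 (HP1 alpha, chromosome 15, 103191544 to 103239816, minus strand) was at 1010.0 and 745.3 CPM in siTfap4, 525.8 and 529.7 CPM in siWiz, 607.1 and 488.0 CPM in siZic2, and 568.1 and 550.3 CPM in siNeg. Both siTfap4 libraries were above the other 6, with replicate 1 the higher. Cbx5 averaged 877.7 ± 187.2 CPM in siTfap4 and 559.2 ± 12.6 CPM in siNeg (log2 0.65, SE 0.24, 156.9% of control, 95% interval 109.7% to 224.6%, edgeR adjusted p = 0.0804). It was called by DESeq2 (0.66, adjusted p = 0.0400) and without siTfap4 replicate 2 (0.84, 0.0317), and was at 0.41 without siTfap4 replicate 1 (0.423). Against siWiz the Cbx5 log2 fold change was 0.73 (edgeR adjusted p = 0.0552), and against siZic2 it was 0.68 (0.0560).

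Cbx1 (HP1 beta, chromosome 11, 96789127 to 96808640, plus strand) was at 653.4 and 1037.3 CPM in siTfap4, 1342.6 and 1179.6 CPM in siWiz, 1167.4 and 1192.0 CPM in siZic2, and 1257.0 and 1282.7 CPM in siNeg. Both siTfap4 libraries were the lowest of the 8, with replicate 1 far below replicate 2. Cbx1 averaged 845.3 ± 271.4 CPM in siTfap4 and 1269.9 ± 18.2 CPM in siNeg (log2 -0.59, SE 0.26, edgeR adjusted p = 0.135); it was called without siTfap4 replicate 2 (-0.97, 0.0242). In siWiz, Cbx1 was at 99.3% of siNeg (95% interval 67.7% to 145.7%) and Cbx5 at 94.4% (66.0% to 134.9%).

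Cbx3 (HP1 gamma, chromosome 6, 51470360 to 51483704, plus strand) was at 98.9 and 189.9 CPM in siTfap4, 164.6 and 182.4 CPM in siWiz, 145.3 and 149.0 CPM in siZic2, and 164.5 and 135.4 CPM in siNeg. The siTfap4 libraries held both the lowest and the highest value, and the log2 fold change against siNeg was -0.05 (SE 0.28, edgeR adjusted p = 0.915). The last 300 bases of Cbx3 match 12 processed pseudogenes at 90% identity or more over at least 150 bases, so its counts are uncertain. Counts assigned to 10 of these pseudogenes came to 8.36% of the 13043 Cbx3 counts, most of them to Cbx3-ps7.

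The make-up of the HP1 transcripts differed between the siTfap4 libraries as well. Cbx5 made up 57.3% (95% Wilson interval 56.5% to 58.1%) and 37.8% (37.1% to 38.5%) of the counts of the 3 HP1 genes in siTfap4, against 28.6% (28.0% to 29.1%) and 28.0% (27.3% to 28.6%) in siNeg. In siWiz the share was 25.9% and 28.0%, and in siZic2 31.6% and 26.7%. These intervals leave out the spread between libraries. They treat reads as independent, which reads without molecular identifiers are not, so they may be too narrow even for counting error. The distance between the 2 siTfap4 libraries is far wider than they are. The ratio of Cbx5 to Cbx1 counts was 1.55 and 0.719 in siTfap4 libraries, 0.392 and 0.449 in siWiz libraries, 0.520 and 0.409 in siZic2 libraries, and 0.452 and 0.429 in siNeg libraries. Summed over the 3 genes, the HP1 level was 1762.4 and 1972.5 CPM in siTfap4 and 1989.7 and 1968.4 CPM in siNeg. The sums of these groups thus overlapped, while their Cbx5 shares did not. The Cbx3 shares overlapped, at 5.61% and 9.63% in siTfap4 and 8.27% and 6.88% in siNeg.

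**Figure D2:**
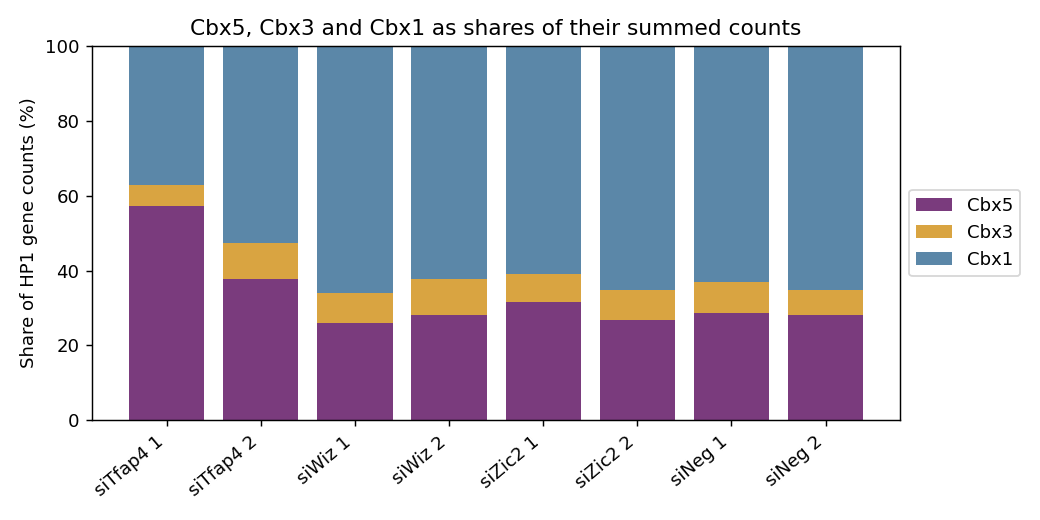
Share of each HP1 gene in the summed counts of Cbx1, Cbx3 and Cbx5, in percent, 1 bar per library. Cbx5 holds 57.3% and 37.8% in siTfap4, against 28.6% and 28.0% in siNeg.

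Taken by comparison, 1 of the 10 members rose in siTfap4 against siNeg (Ehmt2) and 0 fell by edgeR, where 15.9% of all tested genes were called (4.24% higher, 11.7% lower). At an unadjusted p under 0.05 there were 6 members, beside 32.4% of all genes: Wiz, Ehmt1, Ehmt2, Suv39h2, Cbx1 and Cbx5. DESeq2 called 2 that rose, Ehmt2 and Cbx5, where it called 2737 of all 14647 genes (887 higher, 1850 lower). Levels did not overlap for 5 members that lay lower and 3 that lay higher, where 29.5% and 29.6% of all genes did so. The median log2 fold change of the 10 was -0.29, over a range of -0.82 to 0.95, beside 0.01 for all genes. Without siTfap4 replicate 1 the log2 fold changes were 0.53 for Ehmt2, 0.41 for Cbx5, -0.53 for Suv39h2 and -0.30 for Cbx1. Without replicate 2 they were 1.25, 0.84, -1.22 and -0.97.

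In siWiz against siNeg, edgeR called 0 members, where 0% of all genes were called. Of the members 1, Wiz, had an unadjusted p under 0.05, beside 1.82% of all genes, and DESeq2 called 1, also Wiz. Wiz, Ehmt2 and Cbx5 lay below both siNeg libraries without overlap and Cbx3 above, while 12.8% of all genes lay lower and 12.3% higher in this way. The median of the 10 was -0.12, beside -0.00 for all genes. Outside Wiz, the largest member difference was that of Setdb1, at 68.0% of siNeg (95% interval 39.0% to 118.6%). The intervals of Suv39h1 (55.5% to 143.8%), Suv39h2 (44.7% to 111.2%) and Cbx3 (76.3% to 175.5%) also include the control level. A change within them cannot be told from none with these samples.

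In siZic2 against siNeg, edgeR called 0 members and 0% of all genes, no member had an unadjusted p under 0.05 (0.587% of all genes did), and DESeq2 called 0. Wiz and Cbx1 lay below siNeg without overlap and no member above, where 11.7% of all genes lay lower. Log2 fold changes of the 10 lay between -0.24, that of Wiz, and 0.17, that of Setdb1, with a median of -0.05. These 3 comparisons share the siNeg libraries, so they are not independent of each other.

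**Figure D3:**
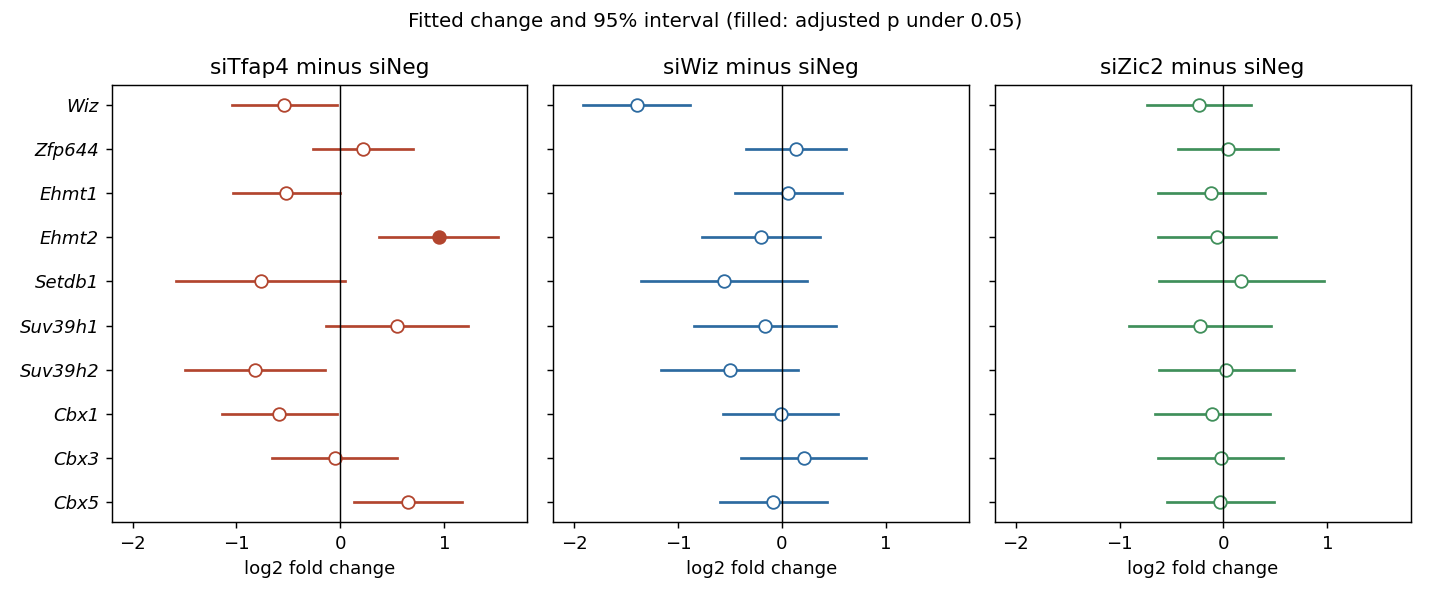
Log2 fold change of each member against siNeg in siTfap4, siWiz and siZic2, with 95% intervals from edgeR; filled points have an adjusted p under 0.05. Wiz in siWiz (-1.40) and Ehmt2 in siTfap4 (0.95) lie farthest from 0 on either side.

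Between the siPOOLs, Wiz and Ehmt2 were the 2 members higher in siTfap4 than in siWiz by edgeR, where 15.1% of all genes were called (4.66% higher, 10.4% lower). In that comparison 6 members had an unadjusted p under 0.05 (31.6% of all genes). DESeq2 called 3 that rose, where it called 2602 of all 14647 genes (897 higher, 1705 lower). Against siZic2, 1 member rose in siTfap4 (Ehmt2), where 23.1% of all genes were called (8.41% higher, 14.7% lower), and 5 members had an unadjusted p under 0.05 (37.6% of all genes). DESeq2 called 2 members there, and 3553 of all 14647 genes (1362 higher, 2191 lower). Levels without overlap were lower for 2 members and higher for 4 in siTfap4 against siWiz (31.8% and 30.0% of all genes), and lower for 5 and higher for 3 against siZic2 (33.8% and 32.9%). In siWiz against siZic2, edgeR called 0 members and 0% of all genes, 1 member (Wiz) had an unadjusted p under 0.05 (2.62% of all genes), and DESeq2 called 0. There 3 members lay lower and 1 higher without overlap (16.9% and 18.1% of all genes). Suv39h2 in siTfap4 against siZic2 gave a log2 fold change of -0.85 (edgeR adjusted p = 0.0654). Ehmt1 in siTfap4 against siWiz gave -0.58 (edgeR adjusted p = 0.116). Leaving out siTfap4 replicate 2 added calls against siWiz for Suv39h1 (1.00), Cbx5 (0.93), Cbx1 (-0.96) and Cbx3 (-0.82). It added calls against siZic2 for Suv39h1 (1.07), Cbx5 (0.87), Cbx1 (-0.86) and Suv39h2 (-1.24). Cbx5 against siWiz was also called without siNeg replicate 1 (0.74).

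The siTfap4 differences moved with base composition over the whole table. For protein-coding genes whose last 300 transcript bases held under 35% GC, the median log2 fold change in siTfap4 against siNeg was -0.29 (2814 genes), and for those above 55% it was 0.62 (839 genes). In siWiz the bin medians ran between -0.06 and 0.04 and in siZic2 between -0.07 and 0.07. Ehmt2, at 57.0% GC, lay above the median of its bin in siTfap4, while Cbx5 (36.0%), Suv39h1 (38.7%), Zfp644 (33.0%) and Cbx3 (34.0%) lay above and Setdb1 (33.3%) and Suv39h2 (36.3%) below the negative medians of theirs. Ehmt1 (49.3%) was negative in a bin with a median of 0.15, and Cbx1 (43.3%) lay below the -0.07 of its bin.

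With GC content and length corrected per library, an alternative chosen after seeing the data, the Ehmt2 log2 fold change in siTfap4 against siNeg was 0.40 (edgeR adjusted p = 0.187) and no longer called. Cbx5 then rose (0.80, adjusted p = 0.0148) and Ehmt1 fell (-0.74, adjusted p = 0.0313). Wiz depended on the transcript taken. With the end of its longest coding transcript, at 59.3% GC, Wiz fell (-1.14, SE 0.23, adjusted p = 0.00701), and with the coding transcript that ends farthest downstream, at 44.7%, it was at -0.53 (adjusted p = 0.0849). Cbx5 (0.78, 0.0171) and Ehmt1 (-0.74, 0.0325) stayed called with the second choice, but the GC content of their ends is the same in both (36.0% and 49.3%). Cbx1, whose end held 43.3% or 33.3% GC, was at -0.48 (edgeR adjusted p = 0.104) with the first choice and -0.27 (0.343) with the second. Wiz in siWiz against siNeg was -1.43 and -1.41 under these corrections, while its difference between siTfap4 and siWiz was 0.29 (adjusted p = 0.408) with the first and 0.88 (0.0144) with the second.

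**Figure D4:**
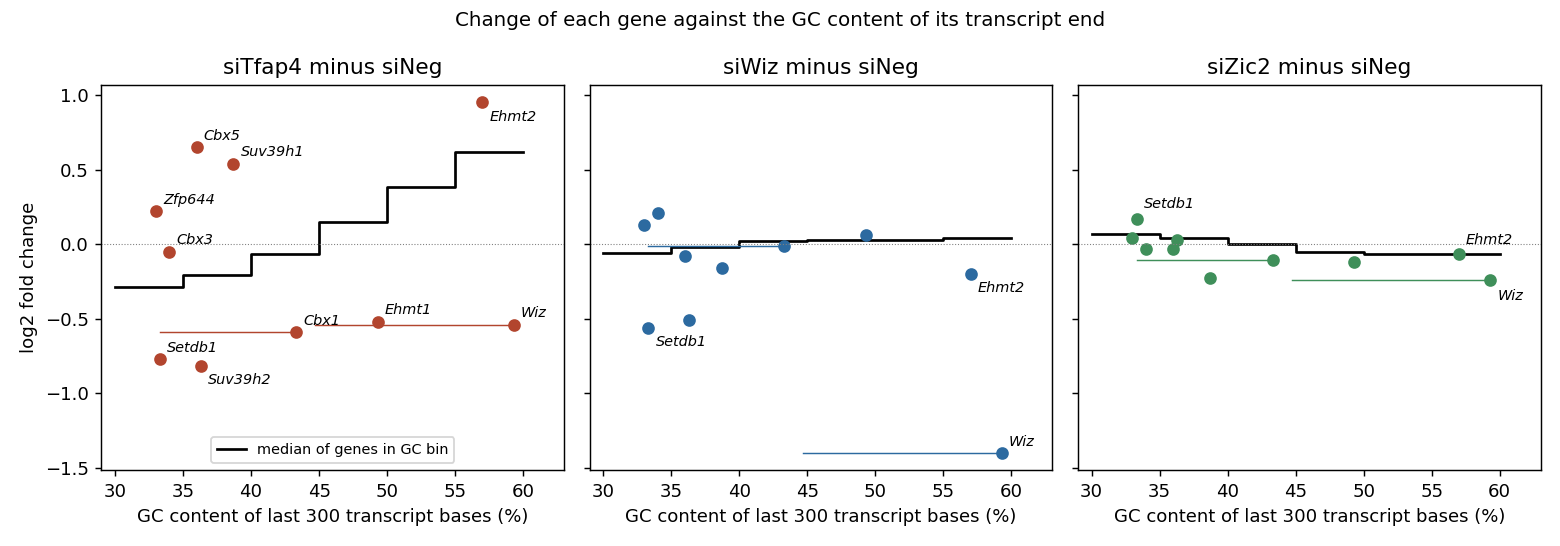
Log2 fold change against siNeg by GC content of the last 300 transcript bases, for the 10 members (points) and as the median of all protein-coding genes in each GC bin (black line); thin lines reach to the GC content of the coding transcript that ends farthest downstream. In siTfap4 the medians run from -0.29 to 0.62, and in siWiz and siZic2 they stay within 0.07 of 0.

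Of 56 tested genes in 6 other lists of the pathway, 9 were called in siTfap4 against siNeg, 16.1% beside 15.9% of all genes, so the share of calls was near that of the whole table. By direction, 8 fell and 1 rose (14.3% and 1.79%, beside 11.7% and 4.24% of all genes). H3K9 demethylases had 3 of 10 tested members that fell and 0 that rose, with a median log2 fold change of 0.07; over all genes 11.7% fell and the median was 0.01. Kdm3a, a demethylase of mono- and dimethyl H3K9, was at 39.5 ± 2.78 CPM in siTfap4 and 96.1 ± 23.8 CPM in siNeg (SD, n = 2 each; log2 -1.28, edgeR adjusted p = 0.00841). Kdm4a, which removes the trimethyl mark, gave -1.23 (edgeR adjusted p = 0.0161), and Phf8, a demethylase of mono- and dimethyl H3K9, gave -0.97 (0.0396). Among other SET and PRDM enzymes, 1 of 4 rose, where 4.24% of all genes did: Prdm2 was at 43.1 ± 19.9 CPM in siTfap4 and 21.6 ± 2.58 CPM in siNeg (log2 0.99, edgeR adjusted p = 0.0460).

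Adaptors and corepressors of the Ehmt enzymes had 3 of 12 that fell and 0 that rose, where 11.7% of all genes fell, with a median of -0.35 beside 0.01 for all genes. Cdyl2, a chromodomain protein, was at 22.4 ± 8.74 CPM in siTfap4 and 162.7 ± 8.0 CPM in siNeg (log2 -2.86, SE 0.32, edgeR adjusted p = 4.15e-04). Ctbp1, a corepressor to which Wiz binds, was at 33.8 ± 13.3 CPM in siTfap4 and 74.5 ± 4.29 CPM in siNeg (log2 -1.14, edgeR adjusted p = 0.0143). Uhrf1, which reads methylated H3K9 and hemimethylated DNA, gave -0.96 (edgeR adjusted p = 0.0231). Of 11 tested HP1 partners 2 fell, where 11.7% of all genes did, with a median of -0.01: Smarcad1, a chromatin remodeller, was at 47.5 ± 10.2 CPM in siTfap4 and 130.7 ± 37.8 CPM in siNeg (log2 -1.46, SE 0.26, edgeR adjusted p = 0.00333), and Pogz, an HP1-binding zinc finger protein, gave -0.87 (0.0365). After GC and length correction, Phf8 (-0.70, edgeR adjusted p = 0.0707), Pogz (-0.64, 0.0518) and Prdm2 (0.68, 0.0774) were no longer called. The other called genes named from these lists stayed called. Cdyl2 and Smarcad1 were called with each library left out in turn. With siTfap4 replicate 1 left out, adjusted p-values were 0.0680 for Kdm3a, 0.114 for Kdm4a, 0.278 for Phf8, 0.117 for Ctbp1, 0.178 for Uhrf1, 0.244 for Pogz and 0.478 for Prdm2. Without siNeg replicate 1 these 7 were not called either (0.0511 to 0.243), and Phf8, Pogz and Prdm2 also lost the call without either siZic2 library (0.0625 to 0.0669). Phf8 (0.0520) and Prdm2 (0.162) lost it without siNeg replicate 2 and Prdm2 without siWiz replicate 2 (0.0508).

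Setdb1 cofactors and the HUSH complex had 0 of 12 called in siTfap4 by edgeR (2 at an unadjusted p under 0.05, 1 by DESeq2), with a median of 0.04. Germline genes that H3K9 methyltransferases are described to silence had 7 of 14 tested and 0 called (3 at an unadjusted p under 0.05, 1 by DESeq2), with a median of -0.48. Beside both lists, edgeR called 15.9% of all genes, 32.4% had an unadjusted p under 0.05 and the median was 0.01. DESeq2 called 2737 of all 14647 genes. Taf7l, a testis form of a TFIID subunit, was at 8.19 ± 2.62 CPM in siTfap4 and 3.21 ± 0.896 CPM in siNeg (log2 1.35, edgeR adjusted p = 0.0591), and was called without siTfap4 replicate 2 (1.64) or without siWiz replicate 1 (1.36) or replicate 2 (1.34). None of the 22 genes of the protocadherin beta cluster, described as misregulated in Wiz mutant mice, passed the filter on low counts.

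In siWiz and siZic2 no gene of the 6 tested lists was called against siNeg by edgeR or DESeq2. Of these 56 genes 1 had an unadjusted p under 0.05 in siWiz, beside 1.82% of all genes, a share near that of the whole table. It was Ctbp2, the other CtBP corepressor, at 228.7 ± 9.80 CPM in siWiz and 328.1 ± 30.7 CPM in siNeg (log2 -0.52, SE 0.22, edgeR adjusted p = 1.00). The gene with the smallest p of each other list in siWiz gave log2 fold changes of -0.47 for the demethylase Phf8, -0.30 for Pogz, -0.29 for the Setdb1 partner Atf7ip, 0.49 for Setdb2 and -0.68 for the germline gene Stk31. In siZic2 they were 0.25 for Cdyl, 0.25 for Kdm3a, 0.35 for the HUSH-associated Morc2a, -0.22 for Kmt5b, -0.22 for Tuba3a and -0.61 for Mecom. None of these had an unadjusted p under 0.05, beside 0.587% of all genes.

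**Figure D5:**
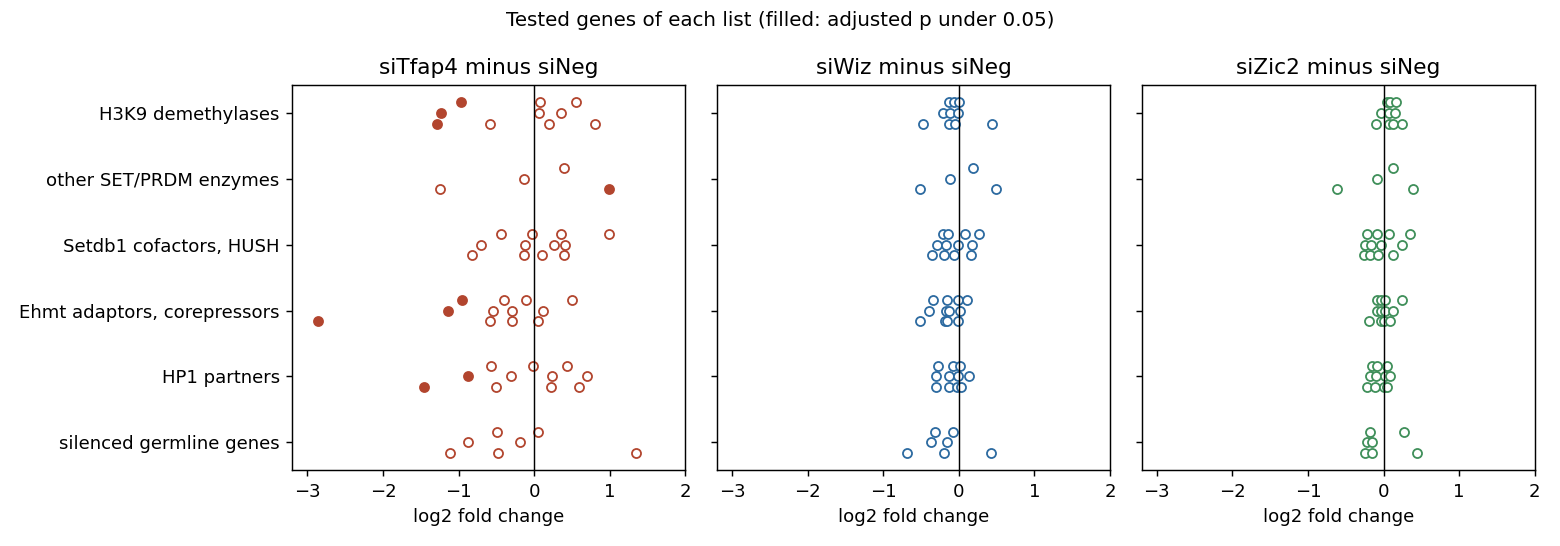
Log2 fold change against siNeg of the tested genes in 6 lists of the H3K9 pathway for siTfap4, siWiz and siZic2, 1 point per gene. The farthest point is Cdyl2 in siTfap4 at -2.86.

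Over the 8 libraries, Pearson correlations of log2 CPM describe which members moved alike; the points share libraries, groups and depth, and the siTfap4 libraries carry much of the spread. Ehmt2 ran with Cbx5 (0.97) and against Cbx1 (-0.96), and Cbx1 ran against Cbx5 (-0.93). Suv39h1 ran with Ehmt2 (0.86) and against Suv39h2 (-0.83). Wiz, which is itself the siPOOL target in siWiz, had correlations of -0.24 to 0.47 with the other 9 members. Setdb1 was also weakly correlated with Ehmt2 (-0.34), Cbx5 (-0.27) and Cbx1 (0.29), though at 0.72 with Suv39h2. Of 10132 genes with a mean of at least 5 CPM, those most like Wiz over the 8 libraries were Map7d1 (0.886), Kansl1 (0.884), Ctbp2 (0.874), Wipf2 (0.873) and Lrrc17 (0.873). Ctbp2 was at 235.6 and 221.7 CPM in siWiz, 270.8 and 260.5 CPM in siTfap4, 300.7 and 338.1 CPM in siZic2, and 349.8 and 306.5 CPM in siNeg. Its siZic2 and siNeg libraries overlapped, which those of Wiz did not. These genes were picked for their likeness to Wiz, so a shared order of groups follows from the choice and is no separate result.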

How the data were processed

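The deposited values are raw counts, reads assigned to Ensembl genes in 8 libraries, which the authors did not normalize. Per the labels' protocols, RNA was extracted with Trizol and 500 ng entered QuantSeq 3' mRNA-Seq FWD libraries; the submitters' processing notes name Trim Galore and GRCm38. For the aligner, counter, annotation release and strand setting, nothing is given in the sources used here. Of 55421 identifiers, 55240 matched GENCODE M21 (GRCm38), and 0 columns were left unused. Replicate pairs were not repeat reads of 1 library (chi-square of their counts over its degrees of freedom, 17.7 to 37.7). Replicate libraries were those the labels number within each group.

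Genes were filtered with filterByExpr, scaled with TMM and tested by quasi-likelihood in edgeR 4.0.16 (R 4.3.3, limma 3.58.1), all 8 libraries in 1 fit with 1 mean per group and no block. The biological coefficient of variation was 22.2%, with 4 residual degrees of freedom. The Benjamini-Hochberg adjustment covered 14647 genes, with a threshold of 0.05. "Rose" and "fell" mean passing it. SEs derive from the F statistic, and the script was tested on simulated counts. Log2 CPM for correlations used a prior count of 2. Figures were drawn with matplotlib 3.10.9.

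The members, lists and tests were chosen with earlier results of these data known. Named were the 10 members; per list and comparison with siNeg, up to 3 called genes with the smallest p, or the 1 with the smallest p where none was called; the 5 genes most like Wiz; and genes that overlap a member or share its end. A gene that the rule names is not reported here. Alternatives were RLE size factors, library totals, no filter, a 5 CPM mean as the filter, the 2 groups alone, a replicate block, leaving out each library, both siTfap4 libraries left out, DESeq2 1.42.0 and a 1.5-fold minimum. Protein-coding genes alone and GC and length corrections (lowess offsets, from either of 2 transcript ends) were chosen after seeing the data. With 1 library left out, the remaining one of its group is assumed to vary like the other groups.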

Additional observations from a re-analysis of the deposited data

How the results depend on the processing

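Wiz in siWiz kept its direction in all 20 alternatives (log2 -1.52 to -1.28) and passed the threshold in 2, DESeq2 and no filter. With both siTfap4 libraries left out it was -1.41 (adjusted p = 0.468). Ehmt2 in siTfap4 against siNeg stayed positive in 19 alternatives (0.40 to 1.25) and was called in 12; with the 2 groups alone (0.91) the adjusted p was 0.0581, and with a 1.5-fold minimum 0.217. Over the members' log2 fold changes in the 6 comparisons, 1096 values kept direction and side of the threshold, 49 moved past it, 25 fell short of it and 0 reversed, where a change of sign within 1 SE of an uncalled value counted as kept.

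Counts of called genes moved more. In siTfap4 against siNeg the 2330 calls became 745 with a 1.5-fold minimum and 504 to 3322 with 1 library left out; the lowest was without siTfap4 replicate 1, the highest without siTfap4 replicate 2, and 757 were left without siNeg replicate 1. In siTfap4 against siWiz the 2207 became 1411 with the 2 groups alone, 654 with a 1.5-fold minimum and 401 (without siTfap4 replicate 1) to 3279 with 1 left out, with 407 without siWiz replicate 1. In siTfap4 against siZic2 the 3379 became 1210 with a 1.5-fold minimum and 905 (without siTfap4 replicate 1) to 4057 with 1 left out, with 1288 and 1264 without siZic2 replicate 1 and replicate 2. In siWiz against siNeg the 0 became 12 with no filter and 1 by DESeq2, in siWiz against siZic2 23 with no filter, and in siZic2 against siNeg it was 0 in each alternative. The cause was not tested. The share of lower calls in siTfap4 against siNeg was 73.3%, beside 98.8% without siTfap4 replicate 1 (6 higher, 498 lower), 97.0% with a 1.5-fold minimum, 92.7% without siNeg replicate 1, 84.3% with the 2 groups alone and 61.1% after GC and length correction; against siWiz it was 69.1%, beside 93.0% to 96.6% with a 1.5-fold minimum or without siTfap4 replicate 1 or siWiz replicate 1, and 58.8% after that correction. Against siZic2 it was 63.5%, beside 87.3% to 93.2% with a 1.5-fold minimum or without siTfap4 replicate 1 or either siZic2 library.

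The replicate block gave 3243, 0, 0, 3056, 4391 and 0 calls for siTfap4, siWiz and siZic2 against siNeg, siTfap4 against siWiz and siZic2, and siWiz against siZic2. Libraries with the same number correlated in their deviations at -0.04 to 0.33, and the labels name no shared day. On the second principal component (14.4% of the variance), replicate 1 lay above replicate 2 in every group. Replicate 1 scores ran from 3.6 (siWiz) to 31.0 (siNeg), those of replicate 2 from -35.2 (siWiz) to -3.3 (siZic2). What libraries of the same number share beyond it was not tested. With the block 5 member calls were added and none was lost: Cbx5 in siTfap4 against siNeg (0.64, adjusted p = 0.0368), siWiz (0.72, 0.0238) and siZic2 (0.68, 0.0228), Ehmt1 against siWiz (-0.57, 0.0464) and Setdb1 against siZic2 (-0.96, 0.0179). Taf7l was called too (1.40, 0.0358).

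Depth limits Wiz, Setdb1, Suv39h1 and Suv39h2 most, at 74 to 634 counts per library. With 2 libraries a group, the 95% intervals given against siNeg for the members in siWiz and siZic2 were wide. Apart from that of Wiz in siWiz, they include the control level, so changes within them cannot be told from none. Opposite-strand exons overlap those of Suv39h1, Setdb1, Suv39h2 and Wiz, and the end of Cbx3 is shared with its pseudogenes.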
